A study of Mus musculus with 26 samples.

Results

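The Toll-like receptor family was followed in sorted mouse microglia through 10 receptor genes, Tlr1 to Tlr9 and Tlr13. Probes were chosen by matching the transcript accession of each array probe to these gene symbols in a RefSeq table. This gave 12 of the 55573 probes kept on the array, 3 for Tlr7 and 1 for each other gene. All 12 were among the 34732 probes bright enough to be tested, so the family is 10 of 14366 named genes with a tested probe. Tlr2 passed that filter only through the WT groups, and Tlr8 only through the WT mPFC R-SDS group.

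The microglia were EGFP-positive cells sorted from 1.5 mm punches of C57BL/6 mouse brain, taken from the nucleus accumbens (NAc) or from the medial prefrontal cortex (mPFC). All mice, controls included, carried the CX3CR1EGFP/+ reporter, a green fluorescent protein at the locus of the microglial chemokine receptor gene. TLR-DKO; CX3CR1EGFP/+ mice were set against CX3CR1EGFP/+ mice, called WT here, and the published work on this line describes the double knockout as loss of Tlr2 and Tlr4, which the labels do not spell out. Exposure to an aggressor mouse over repeated sessions, called repeated social defeat stress (R-SDS), was set against transfer between cages (naive), and tissue was taken 1.5 hours after the last session. The labels call the stressed TLR-DKO mice resilient and the stressed WT mice susceptible. In the NAc there were 4 TLR-DKO R-SDS, 3 WT R-SDS, 3 TLR-DKO naive and 3 WT naive samples. In the mPFC there were 3 TLR-DKO R-SDS, 3 WT R-SDS, 4 TLR-DKO naive and 3 WT naive samples. Each of the 26 samples pooled cells of 3 to 6 mice to reach 500 pg of RNA, which was amplified before labelling, so p-values measure the spread between such pools. Ages were not given in the sources used here.

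Toll-like receptors are membrane proteins of innate immunity that bind conserved microbial molecules, and some also respond to molecules released by damaged cells. Tlr1, Tlr2, Tlr4, Tlr5 and Tlr6 act at the cell surface, where Tlr2 pairs with Tlr1 or Tlr6 to bind bacterial lipoproteins. Tlr3, Tlr7, Tlr8, Tlr9 and Tlr13 act in endosomes and bind nucleic acids. All of them except Tlr3 signal through the adaptor Myd88, and in the brain microglia are the main cells that carry the family.

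Levels are the log2 of the background-subtracted signal less the 75th percentile of its array, so a level of 0 equals that percentile and a step of 1 is a doubling. A probe's level depends on its own sequence, and levels of different probes were not set against each other. Group values are means ± SD over the arrays of a group. The scanner software marks a spot as well above background or not, and a probe was counted as such on an array where a share of at least 0.5 of its spots were. At most 71.0% of the spots of an array were well above background, no spot was saturated (0 spots), and arrays of a group correlated with Pearson r from 0.77 to 0.91 over tested probes. WT mPFC R-SDS replicate 3 stood apart from the others, with the lowest 75th percentile (80.7 units against a highest of 340.5) and a mean r of 0.77 with them. All 20 probes of 13 microglial marker genes (Cx3cr1, P2ry12, Tmem119 and others) were well above background on all 26 arrays. Among immune cells, 3 of 8 plasmacytoid dendritic cell probes, 2 of 9 neutrophil, 2 of 10 T and NK cell, 1 of 10 monocyte, 1 of 7 B cell and 0 of 9 perivascular macrophage probes were well above background on all arrays. On 13 or more arrays these counts were 6 of 8, 3 of 9, 3 of 10, 3 of 10, 5 of 7 and 6 of 9. Plasmacytoid dendritic cells are known to carry Tlr7 and Tlr9. Astrocyte, oligodendrocyte, neuronal and vascular lists had 5 of 12, 5 of 11, 3 of 10 and 1 of 7 probes well above background on all arrays, and 8, 8, 3 and 3 on 13 or more. The part of these cells in the values below was not tested.

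Detection split the family. The probes of Tlr1, Tlr4, Tlr5, Tlr9 and Tlr13 and all 3 probes of Tlr7 were well above background on 26 of 26 arrays. Tlr3 and Tlr6 were so on 23 of 26 arrays each, and Tlr8 on 14 of 26. Tlr2 was well above background on 12 of 12 WT arrays and on 0 of 14 TLR-DKO arrays. Outside the chosen genes, the mouse parasite-sensing receptor Tlr12 was well above background in every sample of its 8 groups, and Tlr11 on 2 WT mPFC naive arrays and 1 WT mPFC R-SDS array alone.

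The first comparison checked the genotype at the genes themselves. Tlr2 fell in TLR-DKO microglia in all 4 settings and was the only one of the 12 Toll-like receptor probes to pass the test by genotype, while the Tlr4 probe kept its signal in every TLR-DKO sample. In R-SDS NAc, Tlr2 stood at -4.60, -3.93, -4.57 and -3.82 in TLR-DKO samples, against 1.53, 0.62 and 1.98 in WT samples. In naive NAc it stood at -4.24, -4.11 and -3.46 in TLR-DKO samples, against 1.58, 2.12 and 1.98 in WT samples. Every TLR-DKO value in both NAc settings was below every WT value by more than the whole spread of either group.

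The mPFC gave the same picture. In R-SDS mPFC, Tlr2 stood at -4.23, -3.82 and -3.63 in TLR-DKO samples, against 2.68, 1.90 and 1.21 in WT samples. In naive mPFC it stood at -3.85, -3.95, -3.72 and -3.57 in TLR-DKO samples, against 1.38, 1.75 and 2.56 in WT samples. No TLR-DKO array reached the WT range in any setting, as the plot of Tlr2 and Tlr4 by array shows.

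**Figure D1:**
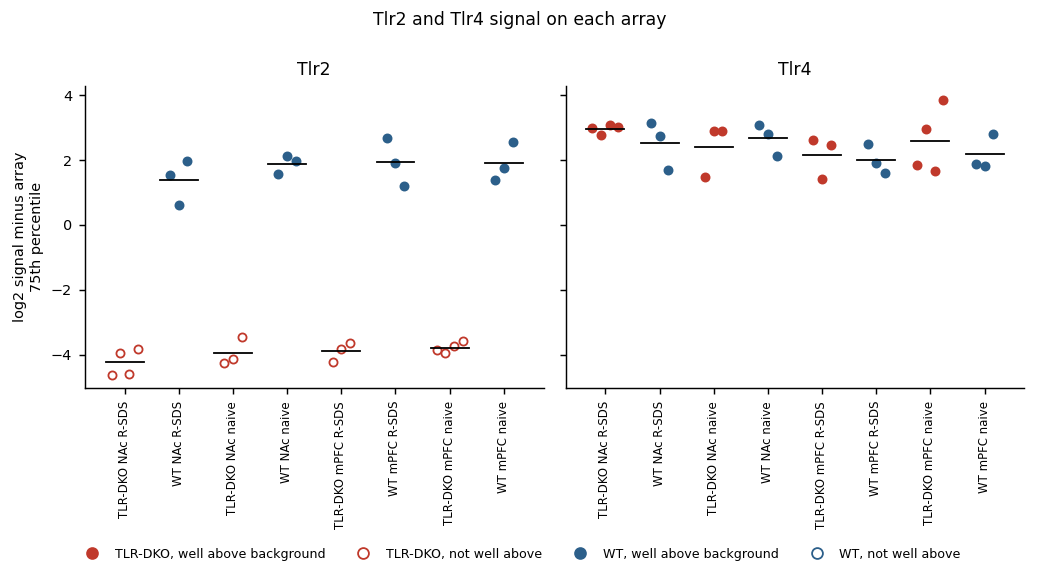
Level of the Tlr2 probe (left) and the Tlr4 probe (right) on each of the 26 arrays, as log2 signal minus the array's 75th percentile, by group. Filled points are well above background, open points are not, and bars are group means. All 14 TLR-DKO arrays have open Tlr2 points between -4.60 and -3.46, below all 12 WT arrays, whereas the Tlr4 points of the genotypes overlap.

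In limma's moderated test with Benjamini-Hochberg adjustment over all tested probes, Tlr2 differed by -5.61 in R-SDS NAc (adjusted p = 9.74e-08), -5.83 in naive NAc (1.63e-07), -5.82 in R-SDS mPFC (1.67e-07) and -5.67 in naive mPFC (7.77e-08) on the log2 scale. It was 1 of 12 family probes called in each setting, where 0.00576%, 0.00864%, 0.00864% and 0.00576% of all tested probes were called in the same order. Averaged over the 4 settings the difference was -5.73 ± 0.20 (SE, adjusted p = 1.50e-13), with 0.00864% of all probes called. Since no TLR-DKO array measured Tlr2 above background, the fold is an approximate bound: signal was at least about 33.2-fold lower in R-SDS NAc, 43.2-fold lower in naive NAc, 45.4-fold lower in R-SDS mPFC and 46.6-fold lower in naive mPFC. At an unadjusted p under 0.05, limma passed 1, 1, 2 and 3 of 12 family probes in those 4 settings and 1 of 12 in their mean, where it passed 3.94%, 3.48%, 5.93%, 5.86% and 7.78% of all tested probes. Groups that did not overlap were found for 2 of 12 family probes in R-SDS NAc (Tlr2 and Tlr9), 1 in naive NAc (Tlr2), 2 in R-SDS mPFC (Tlr2 and Tlr8) and 2 in naive mPFC (Tlr2 and Tlr7 A_55_P2129047), against 6.97%, 7.68%, 9.39% and 5.7% of all tested probes.

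The fold bound sets the WT mean against the lowest signals still well above background, or the measured value where higher, and holds no sampling error. A probe can lie above those lowest signals and still not be well above background. Tlr8 did so on WT naive NAc replicate 2, at -3.48 against -3.60, so the bound is not strict. The Tlr2 probe passed the filter through WT groups only, so it had to differ once it was lost in the others. Tlr8, counted among the passing and the non-overlapping probes in R-SDS mPFC, passed the filter through WT mPFC R-SDS alone.

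The array carries the Tlr2 probe in 10 spots, which gives a technical spread. On WT arrays 120 of 120 spots were well above background, and the median SD between spots of an array was 0.06 on the log2 scale. On TLR-DKO arrays 21 of 140 spots (15%) were, 0 to 4 per array, and the median SD was 0.55. Between WT samples of a group the SD was 0.28 to 0.74, which holds differences between pools of mice as well as spot noise.

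Within a slide, where both genotypes were scanned together, the Tlr2 difference ran from -6.31 to -4.84, with no test. Normexp background correction with an offset of 50, which lifts dim signals by construction, gave -3.34 to -2.90 and kept every call. The call was lost in some fits on fewer arrays: with only the 2 groups compared, adjusted p was 0.381 in R-SDS mPFC and 0.112 in naive NAc. The group means of the 3 Cx3cr1 probes were 5.22 to 5.89, 8.25 to 8.62 and 7.61 to 7.94 in TLR-DKO samples, against 5.08 to 5.47, 8.36 to 8.69 and 7.66 to 8.01 in WT samples. The cells were sorted by a reporter at the Cx3cr1 locus, so a steady level of this marker is partly set by the sort. It is no check of the cell content of the samples, which was not tested. For the small differences of other genes in bulk samples, fewer cells of a type and less RNA per cell cannot be told apart.

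Tlr4, the receptor for bacterial lipopolysaccharide, was well above background in both of its spots on every array. In R-SDS NAc its level was 2.99, 2.76, 3.08 and 3.03 in TLR-DKO samples, against 3.14, 2.74 and 1.70 in WT samples. In naive NAc it was 1.47, 2.88 and 2.88 in TLR-DKO samples, against 3.07, 2.80 and 2.12 in WT samples. The genotypes overlapped in both NAc settings.

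In R-SDS mPFC, Tlr4 stood at 2.61, 1.43 and 2.46 in TLR-DKO samples, against 2.49, 1.92 and 1.60 in WT samples. In naive mPFC it stood at 1.84, 2.96, 1.65 and 3.86 in TLR-DKO samples, against 1.89, 1.82 and 2.81 in WT samples. The overlap held here too, and the highest and lowest Tlr4 values of all 26 arrays, 3.86 and 1.43, both came from TLR-DKO mPFC samples. The TLR-DKO minus WT difference was 0.44, -0.26, 0.16 and 0.40 in R-SDS NAc, naive NAc, R-SDS mPFC and naive mPFC, and 0.19 on average (95% interval -0.36 to 0.74, adjusted p = 0.895, limma). The probe's position in the gene was not used here, so a signal from a transcript left outside a deleted part and an intact transcript cannot be told apart, and this probe checks neither the allele nor the label.

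Promoter sequence was available from RefSeq (GRCm38.p6) for 8 of the 10 genes in 10 windows, and none was found for Tlr4 or Tlr7. The 250 bases before the annotated start were searched on both strands for the NF-kappaB consensus motif (10 bases), the PU.1 motif GAGGAAGT and the interferon response motif GAAANNGAA. NF-kappaB is the main transcription factor activated by these receptors, and PU.1 is a factor that defines the macrophage lineage. Windows of Tlr2 and Tlr3 (2 of 10) held the NF-kappaB motif, which 7.25% of 32851 mouse promoter windows hold. The Tlr2 window holds it 2 times at overlapping positions. The PU.1 letters stood in 1 Tlr1 window (2.44% of all windows) and the interferon response letters in 1 Tlr6 and 1 Tlr8 window (2 of 10, against 7.13% of all windows). The Tlr2 window, the gene that was lost, and the Tlr13 window, whose gene is described with Tlr7 below and whose window holds none of these letters, are shown 5′ to 3′ with matches in capitals. They lie at chr3:83841609-83841858 (minus strand) and chrX:106143025-106143274 (plus strand). A match describes letters only and is not a binding site. The NF-kappaB and interferon response spellings were settled after the windows had been searched once with others, under which a Tlr5 window also held NF-kappaB letters and the Tlr8 window held no interferon response letters.
Tlr2: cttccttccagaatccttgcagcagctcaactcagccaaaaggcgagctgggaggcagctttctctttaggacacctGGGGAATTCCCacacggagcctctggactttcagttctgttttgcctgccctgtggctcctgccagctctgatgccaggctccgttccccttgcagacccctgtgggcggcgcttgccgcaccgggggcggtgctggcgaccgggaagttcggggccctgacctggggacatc
Tlr13: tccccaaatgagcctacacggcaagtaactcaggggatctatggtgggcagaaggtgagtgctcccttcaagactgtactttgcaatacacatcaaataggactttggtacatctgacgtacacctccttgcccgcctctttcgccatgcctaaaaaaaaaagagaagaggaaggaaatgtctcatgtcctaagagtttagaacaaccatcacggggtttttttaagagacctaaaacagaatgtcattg

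Tlr1 and Tlr6, the partners of Tlr2, lie next to each other on chromosome 5 with 0 protein-coding genes between them. Neither passed the test by genotype. Tlr1 stood at 0.54 ± 1.13 in TLR-DKO and 0.31 ± 0.04 in WT R-SDS NAc, and at 0.57 ± 1.20 in TLR-DKO and 0.11 ± 0.55 in WT naive NAc. It stood at 1.02 ± 0.10 in TLR-DKO and 0.70 ± 0.85 in WT R-SDS mPFC, and at -0.43 ± 1.37 in TLR-DKO and 0.05 ± 0.74 in WT naive mPFC. In TLR-DKO naive mPFC a single array, replicate 3 at -2.43, lay far from its group, whereas the TLR-DKO R-SDS NAc values of -0.78, 1.31, -0.01 and 1.63 were spread over all 4 arrays.

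Tlr6 was the least precise probe of the family, with a pooled SD of 1.32 within groups against 0.82 for the median tested probe. Its level was -1.08 ± 1.00 in TLR-DKO and -1.45 ± 1.30 in WT R-SDS NAc, and -0.90 ± 0.62 in TLR-DKO and -2.07 ± 1.76 in WT naive NAc. It was -0.98 ± 1.57 in TLR-DKO and -1.41 ± 0.99 in WT R-SDS mPFC, and -3.17 ± 1.82 in TLR-DKO and -2.62 ± 0.77 in WT naive mPFC. One array per group in TLR-DKO naive mPFC (at -5.64), WT naive NAc (at -4.07) and WT R-SDS mPFC (at -2.53) was not well above background. Averaged over settings, TLR-DKO minus WT was 0.13 for Tlr1 (95% interval -0.61 to 0.87) and 0.36 for Tlr6 (-0.68 to 1.39). Intervals of this width do not show that the genotypes were alike.

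Tlr5, the flagellin receptor, was well above background on every array. Its level was -0.97 ± 0.27 in TLR-DKO and -0.82 ± 0.12 in WT R-SDS NAc, and -0.89 ± 0.22 in TLR-DKO and -0.74 ± 0.91 in WT naive NAc. It was -1.04 ± 0.45 in TLR-DKO and -1.07 ± 0.59 in WT R-SDS mPFC, and -1.85 ± 0.40 in TLR-DKO and -1.07 ± 2.01 in WT naive mPFC. The wide WT naive spreads came from replicate 2 of both regions, at 0.31 in the NAc and 1.25 in the mPFC, the highest Tlr5 values of all arrays. The mean genotype difference was -0.26 (95% interval -0.91 to 0.39, adjusted p = 0.871, limma).

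Among the endosomal receptors, Tlr9, the sensor of unmethylated CpG DNA, was the steadiest, with a pooled SD of 0.37, smaller than in all but 7.33% of tested probes. It stood at 4.62 ± 0.18 in TLR-DKO and 5.19 ± 0.18 in WT R-SDS NAc, and at 4.79 ± 0.23 in TLR-DKO and 4.85 ± 0.35 in WT naive NAc. It stood at 4.83 ± 0.44 in TLR-DKO and 4.46 ± 0.27 in WT R-SDS mPFC, and at 4.71 ± 0.68 in TLR-DKO and 4.71 ± 0.13 in WT naive mPFC. In R-SDS NAc all TLR-DKO values (4.37 to 4.79) lay below all WT values (5.05 to 5.40), but the difference of -0.57 was not called (adjusted p = 0.999, limma), and 6.97% of tested probes had groups that did not overlap in that comparison. The mean genotype difference was -0.06 with a 95% interval of -0.41 to 0.29, the narrowest of the family.

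Tlr3, the sensor of double-stranded RNA, stood between -2.81 and -1.20 on all arrays but 3. Its level was -1.74 ± 0.42 in TLR-DKO and -1.69 ± 0.10 in WT R-SDS NAc, and -1.60 ± 0.57 in TLR-DKO and -2.09 ± 0.62 in WT naive NAc. It was -3.22 ± 2.26 in TLR-DKO and -2.73 ± 1.49 in WT R-SDS mPFC, and -2.34 ± 1.23 in TLR-DKO and -1.62 ± 0.15 in WT naive mPFC. The 3 arrays below the rest, at -5.82 (TLR-DKO R-SDS mPFC), -4.45 (WT R-SDS mPFC) and -4.06 (TLR-DKO naive mPFC), were also those on which Tlr3 was not well above background, and all 3 lie on slide 2. The mean genotype difference was -0.19 (95% interval -1.05 to 0.67).

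Tlr7 and Tlr8 are neighbouring genes on the X chromosome, with 0 protein-coding genes between them, and Tlr13 lies on the same chromosome. Tlr7 binds single-stranded RNA, mouse Tlr13 binds bacterial ribosomal RNA, and the role of Tlr8 in mice is less clear than in humans. Tlr7 probes A_55_P2050932 and A_55_P2129047 carry the accession of one transcript and A_55_P2129046 that of another. Neither the gene nor its probes differed by genotype past the threshold. Averaged over settings, TLR-DKO minus WT was 0.09 (95% interval -0.31 to 0.50), 0.30 (-0.09 to 0.70) and 0.37 (-0.45 to 1.20) for the 3 probes in that order. It was 0.20 (-0.21 to 0.61) for Tlr13. These averages cover opposite mPFC settings. In naive mPFC, A_55_P2129047 stood at 3.29 ± 0.40 in TLR-DKO and 2.32 ± 0.30 in WT, and Tlr13 at 3.78 ± 0.44 and 2.88 ± 0.68. In R-SDS mPFC, A_55_P2129047 stood at 2.93 ± 0.49 in TLR-DKO and 3.49 ± 0.91 in WT, and Tlr13 at 3.37 ± 0.20 and 3.85 ± 0.78.

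Probe A_55_P2129046 had a pooled SD of 1.04, against 0.46 and 0.44 for the other Tlr7 probes. It stood at 2.57 ± 0.45 in TLR-DKO and 2.40 ± 0.65 in WT R-SDS NAc, and at 2.13 ± 0.91 in TLR-DKO and 1.55 ± 0.18 in WT naive NAc. It stood at 1.86 ± 1.37 in TLR-DKO and 1.43 ± 1.12 in WT R-SDS mPFC, and at 1.43 ± 1.50 in TLR-DKO and 1.12 ± 1.31 in WT naive mPFC. Over 26 arrays, which share the scanning and the 75th percentile, Pearson r was 0.56 between A_55_P2050932 and A_55_P2129047, and -0.11 and 0.06 between these and A_55_P2129046. Without WT mPFC R-SDS replicate 3 the same 3 values were 0.41, 0.04 and 0.32, so much of the gap between the first and the last rests on that array.

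Tlr13 ran with the first pair, at r of 0.61 with A_55_P2050932 and 0.58 with A_55_P2129047. Without WT mPFC R-SDS replicate 3 these became 0.50 and 0.41. Within genotypes, Tlr13 and A_55_P2050932 had r of 0.12 in 14 TLR-DKO samples and 0.86 in 12 WT samples. For Tlr13 and A_55_P2129047 the gap was smaller, with r of 0.38 in TLR-DKO and 0.63 in WT samples. The WT values include WT mPFC R-SDS replicate 3. These correlations are descriptions with no test.

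Defeat stress was the second comparison, made within each genotype and region. No Toll-like receptor probe was called in any of the 4 settings or in their mean (0 of 12 each time). Of all tested probes 0.00576% were called in TLR-DKO NAc, 0% in WT NAc, 0% in TLR-DKO mPFC and 0.00288% in WT mPFC, and 0% in the mean of the 4 settings, so the test called almost nothing anywhere. At an unadjusted p under 0.05, limma passed 0, 0, 2 and 3 of 12 family probes in the same order of settings, and 2 of 12 in the mean, where it passed 3.4%, 3.19%, 5.45%, 5.77% and 5.42% of all tested probes. Other background and scaling settings, other filters and leaving out any array gave no call either.

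The 3 family probes with an unadjusted p under 0.05 in WT mPFC were 2 of Tlr7 and the Tlr13 probe. Tlr7 A_55_P2050932 stood at 3.08, 3.14 and 4.08 in WT R-SDS mPFC samples, against 2.22, 2.47 and 2.70 in WT naive mPFC samples. Tlr7 A_55_P2129047 stood at 2.75, 3.20 and 4.51 in WT R-SDS mPFC samples, against 2.64, 2.27 and 2.04 in WT naive mPFC samples. Tlr13 stood at 3.28, 3.54 and 4.74 in WT R-SDS mPFC samples, against 2.16, 2.95 and 3.52 in WT naive mPFC samples. The groups did not overlap for the Tlr7 probes and overlapped for Tlr13, and for all 3 the highest value came from replicate 3, the array that stood apart.

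With all arrays the R-SDS minus naive differences were 0.97 and 1.17 for those Tlr7 probes and 0.98 for Tlr13, with unadjusted p of 0.025, 0.0071 and 0.026 (limma) and adjusted p of 0.850, 0.850 and 0.851. Without replicate 3 they were 0.65, 0.66 and 0.53, with unadjusted p of 0.14, 0.080 and 0.20. The median of all tested probes was 0.16 with that array and 0.03 without it. Groups that did not overlap were found for 4 of 12 family probes in WT mPFC (3 higher and 1 lower), against 8.07% of all tested probes. The 3 higher were those Tlr7 probes and Tlr8, which entered the test through WT mPFC R-SDS alone. The 1 lower was Tlr3, at -1.84, -1.89 and -4.45 in R-SDS samples, against -1.51, -1.55 and -1.79 in naive samples. Its lowest value came from replicate 3, on which it was not well above background.

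**Figure D2:**
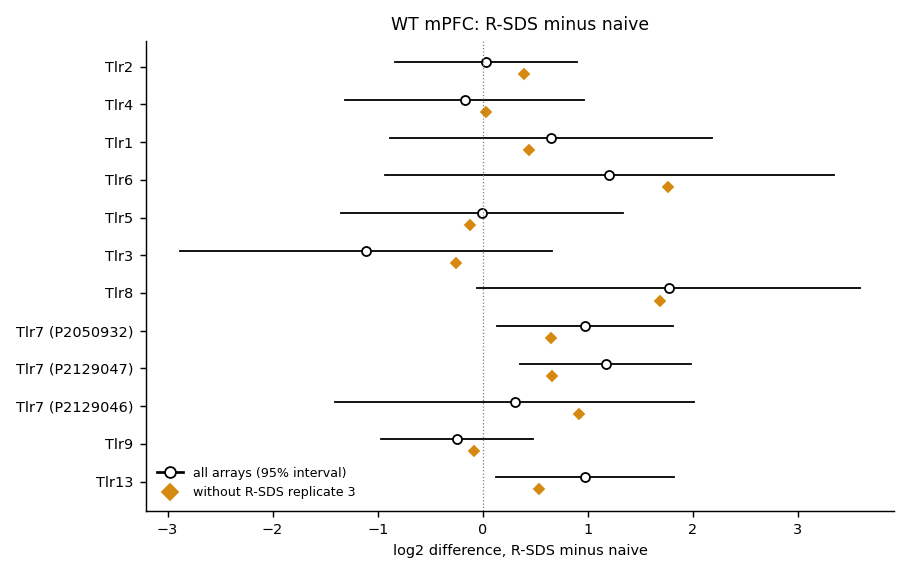
R-SDS minus naive log2 difference in WT mPFC microglia for the 12 probes. Open circles with lines are limma estimates with 95% intervals from all arrays, and orange diamonds are the same differences without WT mPFC R-SDS replicate 3. None passed the adjusted threshold, and for 2 Tlr7 probes and Tlr13 the diamonds lie nearer to 0 (0.65, 0.66 and 0.53) than the circles (0.97, 1.17 and 0.98).

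In TLR-DKO mPFC the R-SDS and naive values of the same probes overlapped. Tlr7 A_55_P2050932 stood at 3.15, 3.35 and 3.08 in TLR-DKO R-SDS mPFC samples, against 3.06, 3.64, 3.25 and 2.24 in TLR-DKO naive mPFC samples. Tlr7 A_55_P2129047 stood at 3.34, 3.07 and 2.38 in TLR-DKO R-SDS mPFC samples, against 3.80, 3.03, 3.41 and 2.91 in TLR-DKO naive mPFC samples. Tlr13 stood at 3.28, 3.59 and 3.22 in TLR-DKO R-SDS mPFC samples, against 3.94, 3.14, 4.15 and 3.87 in TLR-DKO naive mPFC samples. The test of the difference itself, genotype by stress in the mPFC, gave -0.82, -1.53 and -1.39 with unadjusted p of 0.15, 0.0097 and 0.022, and no probe of the array passed after adjustment (0 of 12 family probes, 0% of all, adjusted p = 0.815 for the last 2). At an unadjusted p under 0.05, 3 of 12 family probes passed in that test (Tlr7 A_55_P2129047, Tlr13 and Tlr8), against 6.05% of all tested probes. Tlr8 entered the test through WT mPFC R-SDS alone, a group of this contrast, so its part in the count is no support. Without WT mPFC R-SDS replicate 3 the differences of the Tlr7 probes and Tlr13 were -0.50, -1.02 and -0.94, with unadjusted p of 0.37, 0.041 and 0.087. A higher TLR-DKO naive level enters these differences along with the WT stress change. The naive mPFC means of the Tlr7 probes and Tlr13 were 3.05, 3.29 and 3.78 in TLR-DKO, against 2.46, 2.32 and 2.88 in WT.

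In the NAc, Tlr7 A_55_P2050932 averaged 3.15 ± 0.22 in TLR-DKO R-SDS and 2.89 ± 0.56 in TLR-DKO naive samples, and 3.26 ± 0.41 in WT R-SDS and 2.77 ± 0.63 in WT naive samples. Probe A_55_P2129047 averaged 3.32 ± 0.13 in TLR-DKO R-SDS and 2.86 ± 0.25 in TLR-DKO naive samples, and 2.94 ± 0.33 in WT R-SDS and 2.44 ± 0.37 in WT naive samples. Tlr13 averaged 3.41 ± 0.19 in TLR-DKO R-SDS and 3.65 ± 0.61 in TLR-DKO naive samples, and 3.58 ± 0.09 in WT R-SDS and 3.10 ± 0.33 in WT naive samples. Only Tlr7 A_55_P2129047 in TLR-DKO NAc and Tlr13 in WT NAc had groups that did not overlap, 1 of 12 family probes in each setting, against 4.39% and 8.36% of all tested probes. Averaged over the 4 settings, R-SDS minus naive was 0.47 (95% interval 0.06 to 0.87) and 0.44 (0.05 to 0.84) for these Tlr7 probes, with adjusted p of 0.886 and 0.893 (limma). Without WT mPFC R-SDS replicate 3 the averages were 0.39 and 0.32.

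**Figure D3:**
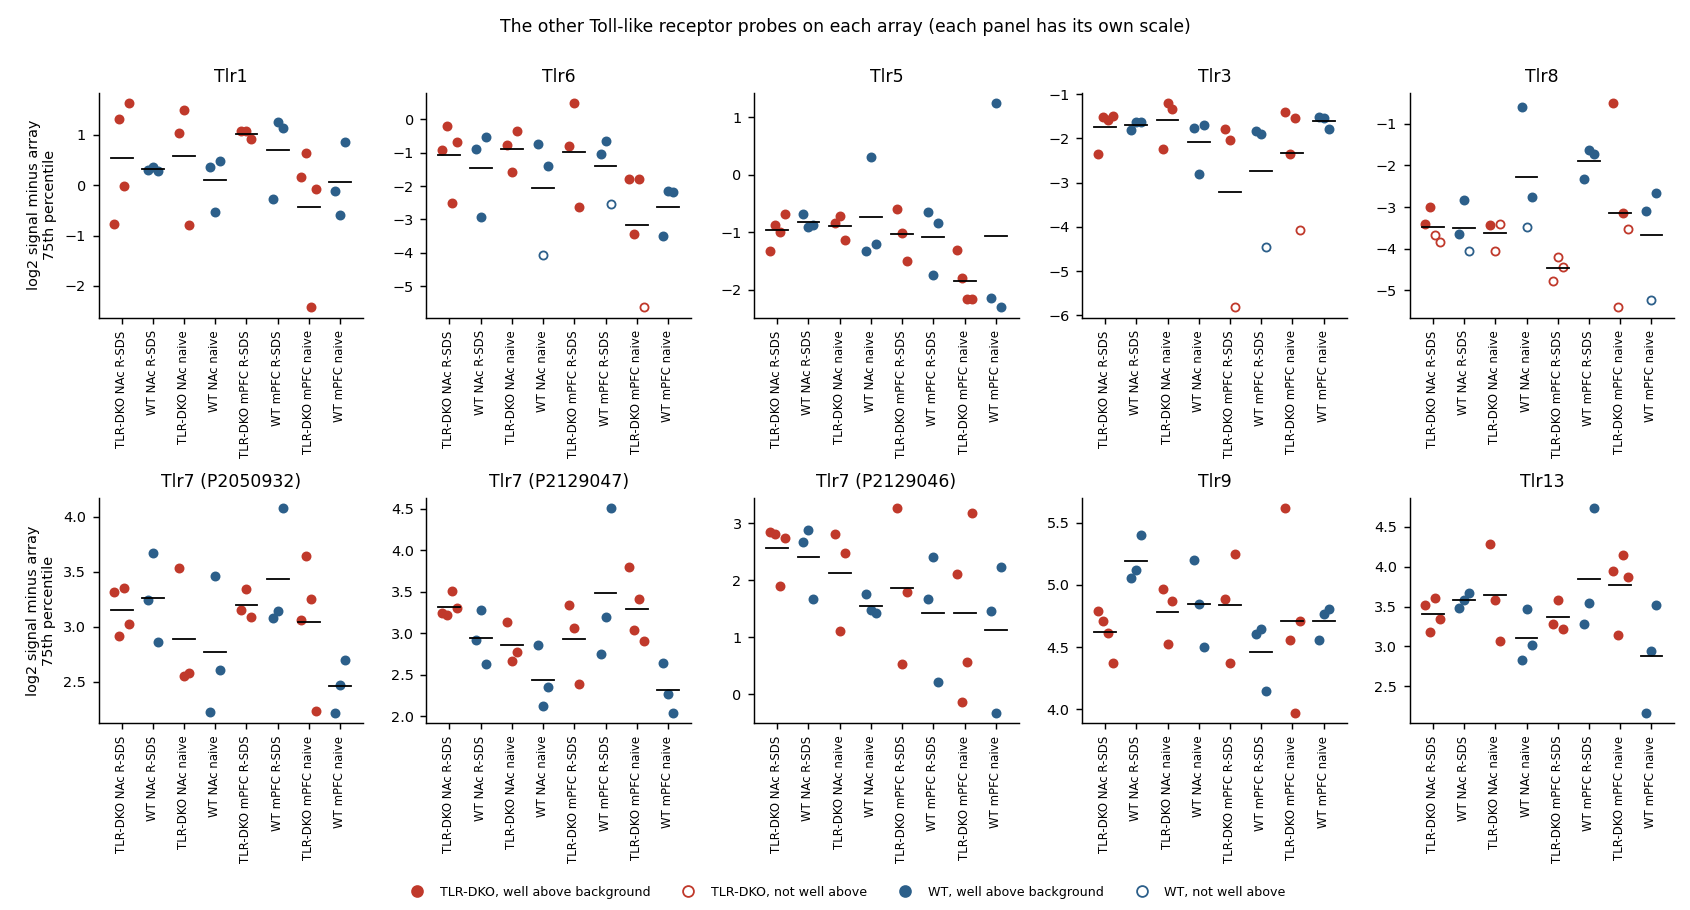
Level of the other 10 Toll-like receptor probes on each array, as log2 signal minus the array's 75th percentile, by group, with a scale of its own for each panel. Filled points are well above background, open points are not, and bars are group means. Tlr9 stayed between 3.97 and 5.62 on all arrays, Tlr7 A_55_P2050932, Tlr7 A_55_P2129047 and Tlr13 have their highest point in WT mPFC R-SDS, and Tlr3, Tlr6 and Tlr8 have open points.

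Tlr8 was near background and patchy. In WT mPFC it stood at -2.32, -1.64 and -1.73 in R-SDS samples, all well above background, against -3.09, -5.24 and -2.67 in naive samples. In TLR-DKO mPFC it stood at -4.78, -4.21 and -4.45 in R-SDS samples, none of them well above background, against -0.49, -5.42, -3.14 and -3.52 in naive samples. The R-SDS groups of the genotypes did not overlap, with signal at least about 3.24-fold lower in TLR-DKO than in WT R-SDS mPFC, by the same approximate bound. That difference of -2.58 had an unadjusted p of 0.0079 and an adjusted p of 0.779 (limma), and genotype by stress in the mPFC was -3.10 (unadjusted p 0.017, adjusted p = 0.815). The probe passed the filter through WT mPFC R-SDS alone, the group in which it is high, so its contrast with other groups is no support.

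In the NAc, Tlr8 stood at -3.41, -3.00, -3.67 and -3.85 in TLR-DKO R-SDS samples, against -3.65, -2.84 and -4.06 in WT R-SDS samples. It stood at -3.42, -4.06 and -3.41 in TLR-DKO naive samples, against -0.59, -3.48 and -2.77 in WT naive samples. All NAc groups overlapped between genotypes, and each had 1 or 2 arrays well above background. The highest values, -0.49 and -0.59, belong to single naive arrays of different genotype and region.

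The remaining stress differences were not called. Tlr2 in WT samples was 0.03 higher in R-SDS than in naive mPFC (95% interval -0.83 to 0.89) and differed by -0.52 in the NAc (95% interval -1.38 to 0.34), with overlapping groups in both. Tlr4 differed by -0.04 on average (95% interval -0.59 to 0.51) and Tlr9 by 0.01 (-0.34 to 0.36). Tlr6 and Tlr1 had the largest differences in TLR-DKO mPFC, 2.19 and 1.45 (unadjusted p of 0.033 and 0.048, adjusted p = 0.868 and 0.910, limma), and both were sensitive to which arrays were kept. Leaving out any 1 of the TLR-DKO mPFC R-SDS arrays gave Tlr1 an unadjusted p of 0.075 to 0.092 (limma). Without TLR-DKO mPFC naive replicate 3 the Tlr1 difference was 0.78 (unadjusted p of 0.22). Without TLR-DKO mPFC naive replicate 4, where Tlr6 was at -5.64 and not well above background, the Tlr6 difference was 1.37 (unadjusted p of 0.15), and without TLR-DKO mPFC R-SDS replicate 2 it was 1.46. Tlr1 stood at 1.07, 1.08 and 0.91 in TLR-DKO R-SDS mPFC samples, against 0.16, 0.64, -2.43 and -0.08 in TLR-DKO naive mPFC samples, with no overlap (1 of 12 family probes, against 6.63% of all tested probes). The mean over the 4 settings was 0.57 for Tlr1 (-0.17 to 1.31) and 0.96 for Tlr6 (-0.07 to 1.99).

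**Figure D4:**
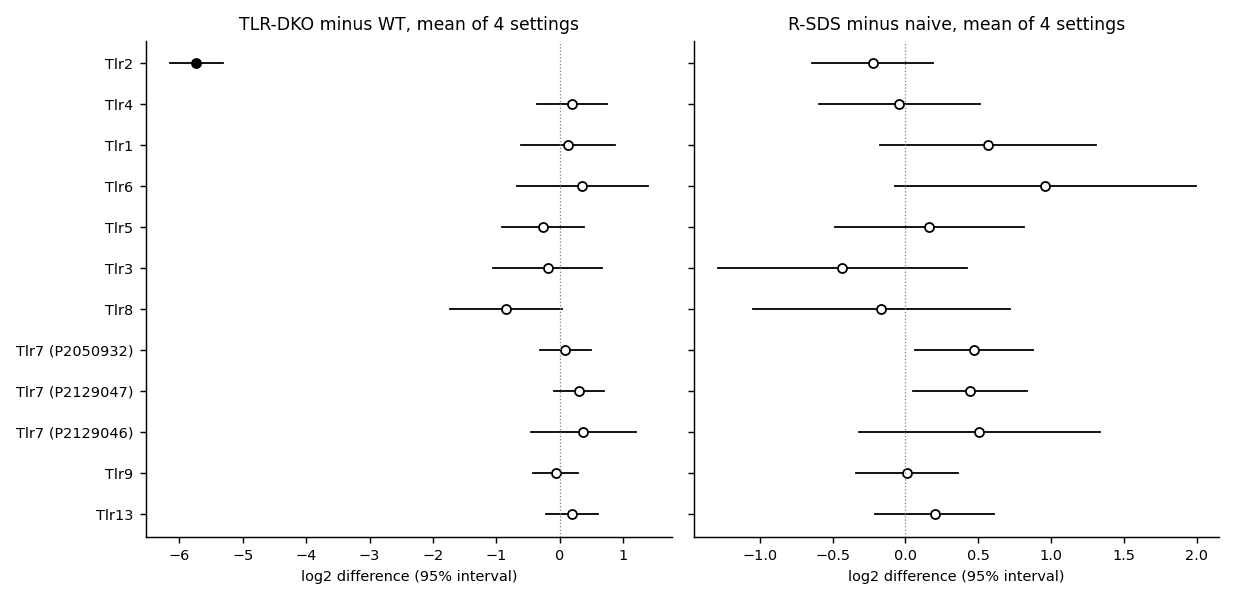
Log2 difference of each Toll-like receptor probe, averaged over 4 settings, for TLR-DKO minus WT (left) and R-SDS minus naive (right), with limma's 95% intervals. The filled point passed the adjusted threshold and open points did not. Only Tlr2 is filled, at -5.73 by genotype, and the intervals are narrowest for Tlr9 and widest for Tlr6. The Tlr2 point on the right averages in TLR-DKO samples, in which the probe was not well above background.

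The third comparison set the NAc against the mPFC, with the slide as a random block since each slide holds a single region. Whether NAc and mPFC pools came from the same mice was not examined. The region tests and the means over 4 settings took pools of different regions as independent. No family probe was called in any of the 4 settings or in their mean, in which 0%, 0.00288%, 0%, 0.00288% and 0% of all tested probes were called (WT naive, WT R-SDS, TLR-DKO naive, TLR-DKO R-SDS and mean). Averaged, NAc minus mPFC ran from -0.11 for Tlr7 A_55_P2129047 (95% interval -0.64 to 0.42) to 0.74 for Tlr3 (-0.30 to 1.79) over the probes other than Tlr2. For Tlr2, measured in WT samples alone, it was -0.53 in R-SDS (-1.45 to 0.38) and -0.05 in naive samples (-0.96 to 0.87). It was 0.40 for Tlr4 (-0.35 to 1.15), 0.19 for Tlr9 (-0.27 to 0.66) and -0.04 for Tlr13 (-0.59 to 0.50). Groups that did not overlap were found for 0, 3, 2 and 2 of 12 family probes in those settings, against 11.6%, 12.8%, 8.38% and 5.23% of all tested probes. The 3 in WT R-SDS include Tlr8, which entered the test through WT mPFC R-SDS alone. At an unadjusted p under 0.05, limma passed 0, 0, 1, 0 and 0 of 12 in the order above, where it passed 4.11%, 6.97%, 6.59%, 2.03% and 6.2% of all tested probes.

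Tests of interactions beyond the mPFC called none of the 12 either (0 of 12 in each, limma), with 0% of all probes called except 0.00288% for stress by region in TLR-DKO. At an unadjusted p under 0.05, 0 of 12 passed for genotype by stress in the NAc and for genotype by region in naive samples, against 2.8% and 3.83% of all tested probes. For genotype by region in R-SDS samples and stress by region in WT samples 1 of 12 passed, Tlr8 in both, against 3.28% and 3.48%. Tlr8 entered the test through WT mPFC R-SDS alone, a group of both contrasts, so these passes are no support. For stress by region in TLR-DKO samples 0 of 12 passed, against 3.5%.

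The rest of the pathway was described by lists of 68 tested genes with 90 probes: co-receptors, chaperones, adaptors, kinases, transcription factors, negative regulators, endogenous ligands and Tlr12. None of the 90 probes was called higher or lower in any of the 21 comparisons (0 higher and 0 lower). Since 0% to 0.00864% of all tested probes were called in these comparisons, that count says nothing particular about the pathway. At an unadjusted p under 0.05, limma passed 3 of 90 probes in the mean genotype effect and 10 of 90 in the mean stress effect. Of all tested probes it passed 7.78% and 5.42%. The lists were chosen with earlier results of these data known, so these counts are no support. The median difference of the 90 probes was 0.03 for TLR-DKO minus WT, against -0.09 over all tested probes, and 0.10 for R-SDS minus naive, against 0.05, both averaged over settings. Co-receptors of Tlr4 were well above background throughout: Cd14 and Ly96, which together present lipopolysaccharide, were so in every group. Unc93b1, which carries the endosomal receptors to their compartment, was too, and the shared adaptor Myd88 was on all arrays but 1.

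For a gene with several probes, the values below are those of its probe of smallest p, and its other probes may differ. By genotype, the smallest p among these lists belonged to the inhibitor Tollip at -0.93 (95% interval -1.59 to -0.28, adjusted p = 0.462, limma). Ikbkg, the scaffold of the IkappaB kinase, differed by 1.17 (adjusted p = 0.573) and the NF-kappaB subunit Rel by -0.75 (adjusted p = 0.593). By stress, Rel differed by 1.51 (95% interval 0.83 to 2.18, adjusted p = 0.272), the early gene Fos by 0.93 (adjusted p = 0.760) and Zc3h12a, an RNase that degrades inflammatory transcripts, by 1.51 (adjusted p = 0.805). Ikbkg differed by -1.34 (adjusted p = 0.849), and Nfkbiz and Tollip, both placed in the list of negative regulators, by 0.77 and 0.79. Map3k8 and Irak2, both placed in the list of kinases, differed by 1.32 and 0.98. None of these passed the threshold.

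Genes whose pattern was most like a receptor's were ranked by Pearson r over the 26 arrays, among tested probes with a gene name. Such probes numbered 18458, so the highest r of each search is large by selection, and none was tested. For Tlr2 the closest genes were Fcrls (0.81), Fcrl1 (0.81) and Grxcr1 (0.74). The arrays fall into separate genotype clusters for Tlr2, and within them r with Fcrls was 0.42 in 14 TLR-DKO and 0.06 in 12 WT samples, and with Fcrl1 0.38 and -0.16. Fcrls, a microglial Fc receptor-like gene, averaged 5.18 ± 0.48 in TLR-DKO and 6.34 ± 0.41 in WT samples. Fcrl1 averaged -5.68 ± 0.38 in TLR-DKO samples, on 0 of 14 arrays well above background, and -2.46 ± 1.63 in WT samples, on 9 of 12. Both lie on chromosome 3 with Tlr2, with 19 and 21 protein-coding genes between, in the order of the RefSeq table, whereas Grxcr1 lies on chromosome 5.

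For the receptors seen on all arrays, the closest gene was Rnf168 for Tlr4 (0.83), Gatc for Tlr1 (0.76), Nmt2 for Tlr5 (0.73), Igdcc3 for Tlr9 (0.77) and Gaa, a lysosomal glucosidase, for Tlr13 (0.78). The 3 Tlr7 probes had different closest genes, Prkab2 (0.70), B4galt1 (0.75) and Ermap (0.72) for A_55_P2050932, A_55_P2129047 and A_55_P2129046. All of these are the highest values of the same search, and whether they exceed what such a search gives without any link was not tested. Leaving out the 2 arrays farthest from the median lowered the r of Tlr5 with Nmt2 to 0.47 and that of Tlr1 with Gatc to 0.58.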

How the data were processed

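Microglial RNA of 26 samples was hybridised to single-colour Agilent mouse arrays, 1 array a sample, on 4 slides (2 a region) read on 2 scan days. The deposited scanner files hold spot intensity on a linear scale, background-subtracted by Agilent Feature Extraction (version 11.0.1.1 according to the submitters' processing notes). The authors' deposited value table holds log2 values; its r with the scanner values of each array was 1, the offset never exceeded 0.062, its column medians ran from -2.90 to -2.20, and it served as an alternative.

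The value used here was the log2 signal less the 75th percentile of its array, averaged over the spots of a probe. Controls and outlier-marked spots were dropped, and 108 probes with them. Of 29744 probes with a RefSeq-style accession 27974 were named through RefSeq (GRCm38.p6). The file headers name build mm9, so only the promoter windows carry coordinates.

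Testing required signal well above background on 3 or more arrays of a group. One limma model (version 3.58.1, R 4.3.3, lmFit and eBayes, two-sided) held the means of the 8 groups over the 26 arrays, and p was adjusted by Benjamini-Hochberg over 34732 probes, threshold 0.05. Region effects had the slide as a random block, with a consensus correlation of 0.12. The number of arrays limits the precision: in data simulated for the genotype effect in naive mPFC on 34732 probes, the fit called 6%, 28%, 82% and 92% of 50 probes each that were lowered by 1, 2, 4 and 6 (log2), with 5 false calls.

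All 12 member probes were named in the text. Of the pathway lists, a gene was named where called, or among the 3 smallest p in the mean genotype or stress effect. Each gene entered that ranking by its probe of smallest p. The members, lists and alternatives were chosen with earlier results of these data known, and the lists give no independent support. Unused columns numbered 0.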

Additional observations from a re-analysis of the deposited data

Results flagged for a closer look

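In the 2 groups of 4 arrays, 24 sets of values were examined for a value far from the other 3, and chance marks about 1 in 20 such sets. Both values that stood out lie in TLR-DKO NAc R-SDS. Tlr3 stood at -2.36 on replicate 1, against -1.58 to -1.50 on the other 3 arrays, with a gap of 0.898 of the group's whole range. Tlr7 A_55_P2129046 stood at 1.9 on replicate 3, against 2.73 to 2.85 on the others, with a gap of 0.881 of the range. Both probes were well above background on those arrays, and no cause was tested. No interaction of genotype, stress or region passed the adjusted threshold for a family probe.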

How the results depend on the processing

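Of 12 receptor probes, the 11 other than Tlr2 passed the threshold in none of 21 comparisons under any of 42 alternatives (0 of 9055 values, smallest adjusted p 0.109). Tlr2 kept its sign in every alternative. The count of called probes fell to 0, against 1, in these cases. With a filter of at least 13 arrays well above background it was 0 in all 4 genotype settings and in their mean, because Tlr2 is measured on 12 arrays and left the test. With only the 2 groups compared it was 0 in R-SDS mPFC (Tlr2 -5.82, adjusted p 0.381) and in naive NAc (-5.83, 0.112), with fewer samples in the fit. On scan day 1 alone, chosen after seeing the data, it was 0 in naive mPFC (-5.42, 0.053), naive NAc (-5.82, 0.200) and R-SDS NAc (-5.34, 0.349), and on day 2 alone in naive NAc (-5.84, 0.075) and R-SDS NAc (-6.17, 0.068). A day holds 1 or 2 arrays of each of these groups, and an arm of 1 (both arms in naive NAc and TLR-DKO in naive mPFC on day 1, WT in R-SDS NAc on day 2) was assumed to vary like the other groups, so these lost calls say little about stability. Leaving out each array in turn, Tlr2 ran from -5.98 to -5.30 in R-SDS NAc, -6.07 to -5.68 in naive NAc, -6.18 to -5.45 in R-SDS mPFC, -5.93 to -5.34 in naive mPFC and -5.83 to -5.64 in the mean, and passed each time. With the replicate block Tlr2 was -5.74, -5.83, -5.82, -5.74 and -5.78 in that order, and 1 family probe was called in each. Samples with the same replicate number had a mean correlation of 0.05 in their deviations (-0.12 to 0.24), so the numbers were not taken as pairs. Samples on the same slide had a mean of 0.08 (-0.05 to 0.24), against -0.07 (-0.21 to 0.04) on different slides. The main genotype and stress fits held no slide term. Slides were uneven, as TLR-DKO naive mPFC had 1 array on slide 1 and 3 on slide 2. A fit with the slide as a fixed block was among the 42 alternatives. Median centring moved the median of all probes by over 0.1 in some comparisons (from -0.22 to -0.04 in R-SDS mPFC between genotypes, and from 0.16 to 0.02 for stress in WT mPFC). Normexp was run on the median signal, a choice made after seeing the data, and the planned run on the mean signal was not run. Dim probes (Tlr3, Tlr6, Tlr8) are limited by background.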
